A study of Mus musculus with 4 samples.

Results

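Gastrin, ghrelin, somatostatin, cholecystokinin and secretin are peptide hormones of the digestive tract, and their genes are Gast, Ghrl, Sst, Cck and Sct. They were examined in mouse stomach together with 5 genes of hormone- or histamine-secreting cells: Chga and Chgb, which encode chromogranins, Pcsk1, Pcsk1n and Hdc. The 10 genes were taken by name, as the probes whose platform annotation gives exactly that symbol. Each had 1 probe, so 10 of 33012 probes on the array, and 10 of 13840 named genes, were chosen, and all 10 had a value on every array. The congenic strain was B6.CAST-17, homozygous male mice that by their name carry a CAST segment of chromosome 17 on a B6 background. It was set against wild-type male C57BL/6J mice. All animals were on a chow diet and went without food for 4 h before the stomach was removed, and their ages are not stated. Each strain was measured as 2 pools, each of RNA from 3 animals, on 1 array per pool, so 12 animals entered on 4 arrays. None of the 10 genes lies on chromosome 17. Between 16320 and 16954 probes had a value on an array, and over the 13475 with a value on all 4 the pools correlated at 0.991 within congenic and 0.988 within wild-type mice (Pearson's r across probes). Single pools weighed heavily on the comparison as a whole: 64 probes passed with all 4 pools, and between 15 (congenic pool 1 left out) and 168 (wild-type pool 2 left out) with 3.

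Endocrine cells are scattered through the gastric epithelium. They store hormones in dense-core granules, where chromogranins pack the cargo and convertases cut each prohormone at basic residues. G cells of the antrum release gastrin after a meal, gastrin drives acid secretion in part through histamine from enterochromaffin-like cells, and D cells restrain both with somatostatin. X/A-like cells of the acid-secreting mucosa release ghrelin, which rises in fasting and stimulates appetite.

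None of the 10 genes passed an adjusted p of 0.05 between the strains (limma, adjusted over all 13475 probes with a value on all arrays), against 0.475% of all probes. The 4 with an unadjusted p under 0.05 were Pcsk1n, Gast, Ghrl and Chgb, against 15.8% of all probes in either direction. All 4 had lower means in the congenic pools, and 8.66% of all probes had an unadjusted p under 0.05 in that direction. For 6 of 10 genes both congenic pools lay below both wild-type pools (26.1% of all probes), and for 1 gene, Sct, both lay above (23.4% of all probes). The difference was negative for 9 of 10 genes (50.4% of all probes). The median difference was -0.17 on the log2 scale over the 10 genes and -0.0020 over all probes compared. These counts describe genes that were chosen with earlier results of these data known. In whole tissue, fewer cells of a type and less RNA per cell cannot be told apart. Values below are log2 signals of a probe, and each difference is congenic minus wild type with its SE and n = 2 pools per strain. A signal is compared between strains for 1 probe at a time, since probes differ in how brightly they read.

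**Figure D1:**
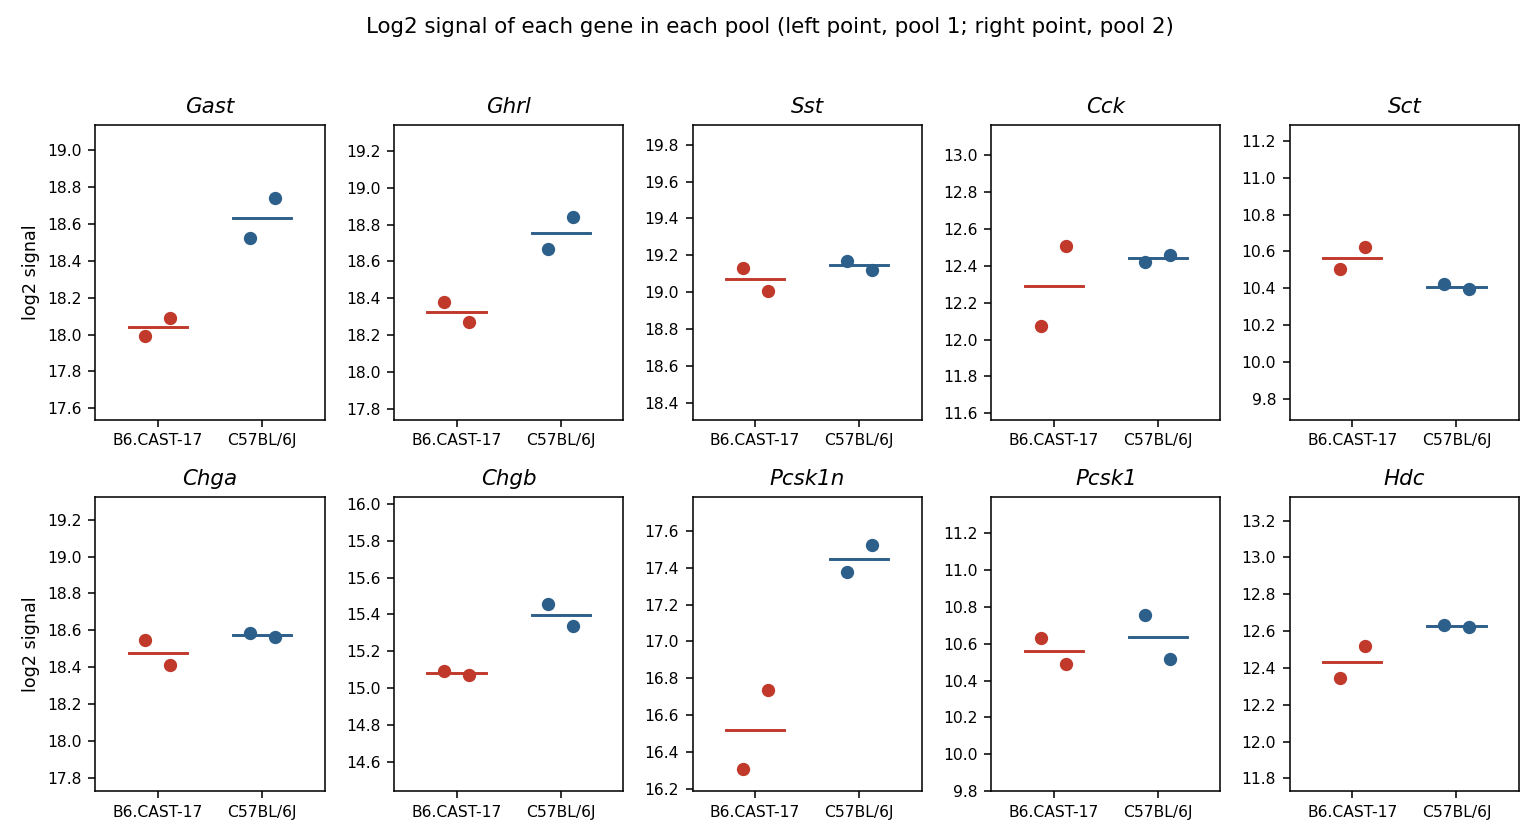
Log2 signal (vertical axes, each spanning the same 1.6 units around the gene's own level) of the 10 genes in the 2 B6.CAST-17 pools (red) and the 2 C57BL/6J pools (blue); points are pools and lines are means. For Gast, Ghrl, Chgb and Pcsk1n the higher congenic point lies 0.25 to 0.64 below the lower wild-type point, whereas for Sst, Cck and Pcsk1 the pools overlap.

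Gast, on chromosome 11, encodes the precursor of gastrin. Its probe read 17.99 and 18.09 in congenic pools 1 and 2, against 18.52 and 18.74 in wild-type pools 1 and 2. Both congenic pools lay below both wild-type pools, with a gap of 0.43 that was larger than the distance between the pools of either strain. The means were 18.04 ± 0.071 in congenic and 18.63 ± 0.16 in wild-type pools (SD, n = 2 each). The difference of -0.59 ± 0.099 (SE) corresponds to a congenic level 0.664 times that of wild type, and it did not pass (limma adjusted p = 0.113). Its 95% interval, which is not corrected for the number of probes, was -0.83 to -0.35. Leaving out any 1 pool left the difference between -0.70 and -0.48, with limma adjusted p between 0.05697 and 0.3742.

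Ghrl, on chromosome 6, encodes the precursor of ghrelin and of obestatin. It read 18.38 and 18.27 in the congenic pools, against 18.67 and 18.84 in the wild-type pools. Again the groups did not overlap, and the gap between them was 0.29, while pools of one strain lay 0.11 and 0.18 apart in congenic and wild-type mice. The difference was -0.43 ± 0.093, or 0.743 times the wild-type level (95% interval of the difference -0.66 to -0.20, limma adjusted p = 0.1713). Without any 1 pool it stayed between -0.52 and -0.34.

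Sst, on chromosome 16, encodes somatostatin. Its values were 19.13 and 19.01 in the congenic pools and 19.17 and 19.12 in the wild-type pools. Congenic pool 1 lay between the wild-type pools, so the groups overlapped. The difference was -0.075 ± 0.083 (95% interval -0.28 to 0.13, limma adjusted p = 0.6823), so these arrays leave room for a congenic level between 0.824 and 1.09 times that of wild type. Whether the strain difference of Gast differs from that of Sst was not tested.

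Cck, on chromosome 9, encodes cholecystokinin, a duodenal and neuronal peptide that shares the active carboxyl end of gastrin. The congenic pools read 12.07 and 12.51, against 12.42 and 12.46 in the wild-type pools. The congenic pools stood 0.43 apart and enclosed both wild-type values. The difference of -0.15 ± 0.17 (limma adjusted p = 0.6877) became 0.066 when congenic pool 1 was left out. Sct, on chromosome 7, encodes secretin, a duodenal hormone that stimulates bicarbonate secretion. It read 10.50 and 10.62 in the congenic pools, against 10.42 and 10.39 in the wild-type pools. Sct was the gene with a positive difference, 0.16 ± 0.22 (95% interval -0.37 to 0.69, limma adjusted p = 0.746), and its groups stood only 0.084 apart. Its probe was dim, above 7.73% of the probes compared by mean signal. Among probes whose other arrays averaged under 11, between 10.3% and 17.4% of an array's values were blank, so small differences of such probes are less secure.

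Chromogranins are acidic proteins that aggregate in the granule and serve as general markers of endocrine cells. Chgb, on chromosome 2, read 15.09 and 15.07 in the congenic pools, against 15.46 and 15.34 in the wild-type pools. The congenic pools lay 0.020 apart and 0.25 below the nearer wild-type pool. The difference was -0.32 ± 0.078, or 0.802 times the wild-type level (95% interval -0.51 to -0.13, limma adjusted p = 0.1859). Chga, on chromosome 12, read 18.55 and 18.41 in the congenic pools, against 18.58 and 18.56 in the wild-type pools. The groups did not overlap for Chga either, but the gap was 0.016 and smaller than the 0.14 between the congenic pools. Its difference of -0.095 ± 0.081 had a 95% interval of -0.29 to 0.10 (limma adjusted p = 0.5973).

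The largest difference among the 10 genes belonged to Pcsk1n, on chromosome X. It encodes proSAAS, a granule protein that is cut into several peptides and inhibits the convertase made by Pcsk1. Congenic pools 1 and 2 read 16.30 and 16.74, against 17.38 and 17.52 in wild-type pools 1 and 2. The higher congenic value lay 0.64 below the lower wild-type value, although the congenic pools themselves differed by 0.43. The means were 16.52 ± 0.31 in congenic and 17.45 ± 0.10 in wild-type pools (SD, n = 2 each). The difference was -0.93 ± 0.15, or 0.525 times the wild-type level, with a 95% interval of -1.29 to -0.57. It did not pass (limma adjusted p = 0.09733), and 0.453% of all probes had a lower difference. Without any 1 pool the difference was between -1.15 and -0.71, with limma adjusted p between 0.06665 and 0.2079.

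Pcsk1, on chromosome 13, encodes the convertase that proSAAS inhibits, which makes the first cuts in many prohormones. It read 10.63 and 10.49 in the congenic pools and 10.76 and 10.52 in the wild-type pools. The groups overlapped, and the difference of -0.075 ± 0.22 (95% interval -0.61 to 0.46, limma adjusted p = 0.8877) became 0.046 without wild-type pool 1. The probe was dim, above 9.25% of the probes compared. Hdc, on chromosome 2, encodes histidine decarboxylase, which makes histamine in enterochromaffin-like cells and in mast cells. Its values were 12.34 and 12.52 in the congenic pools, against 12.63 and 12.63 in the wild-type pools. Both congenic pools lay below, with a gap of 0.11 that was smaller than the 0.17 between them. The difference was -0.20 ± 0.12 (95% interval -0.49 to 0.094, limma adjusted p = 0.4612). Of 4 measured mast cell genes, Cpa3 (-0.66 ± 0.18) and Cma1 (-0.63 ± 0.20), both mast cell proteases, had an unadjusted p under 0.05, against 15.8% of all probes. Kit, the receptor mast cells need to survive (0.44 ± 0.22), and Tpsb2, a tryptase of chromosome 17 (0.0059 ± 0.16), did not. In limma 0 of the 4 passed. The median over the 4 was -0.31. The log2 of their summed signals, 16.27 and 16.67 in the congenic pools and 16.52 and 16.39 in the wild-type pools, mostly follows the bright Tpsb2 probe. Kit read 12.69 in wild-type pool 1, against 13.40 in wild-type pool 2 and 13.47 and 13.51 in the congenic pools. Tpsab1, a tryptase also on chromosome 17, read 11.91 and 11.99 in the congenic pools and was blank in both wild-type pools. Fcer1a had a value in congenic pool 2 alone (10.80), so neither gene was compared. The part of mast cells in the Hdc values was not tested.

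**Figure D2:**
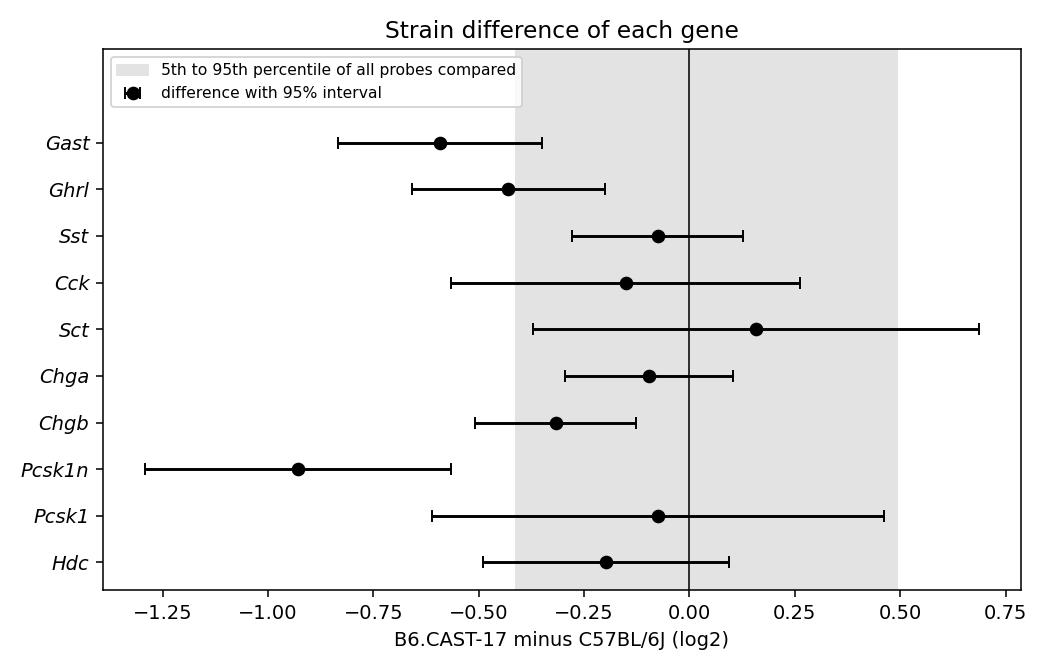
Difference of each gene, B6.CAST-17 minus C57BL/6J, on the log2 scale with its 95% interval from limma (2 pools per strain, intervals not corrected for the number of probes); the grey band runs from the 5th to the 95th percentile of the differences of all 13475 probes, -0.41 to 0.49. Pcsk1n, Gast and Ghrl lie below the band, Chgb lies inside it with an interval below 0, and the intervals of the other 6 genes include 0.

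**Figure D3:**
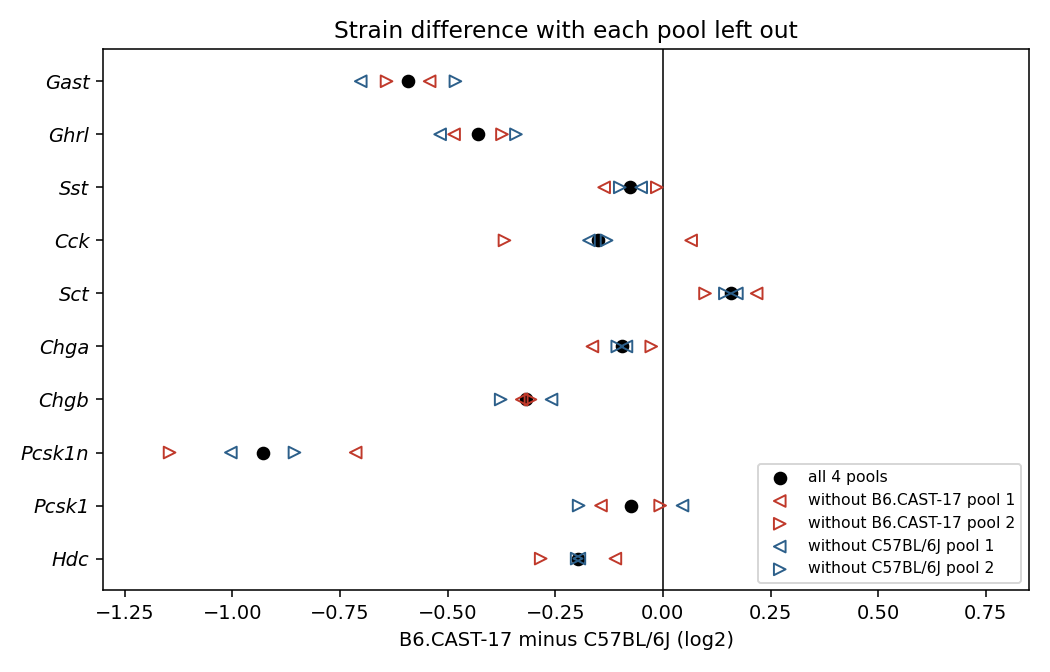
Difference of each gene, B6.CAST-17 minus C57BL/6J, on the log2 scale with all 4 pools (black) and with each pool left out in turn (open triangles, red for congenic and blue for wild-type pools). Gast, Ghrl, Chgb and Pcsk1n stay below 0 in all 4, which is fixed by both congenic pools lying below both wild-type pools. Cck crosses 0 without congenic pool 1 and Pcsk1 without wild-type pool 1.

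Promoter windows of the 4 genes with an unadjusted p under 0.05, and of Sst for contrast, are shown so that their sequences can be compared. They come from RefSeq on GRCm38.p6, the C57BL/6J assembly, and run from 250 bases before to 50 after the start listed in the RefSeq promoter table (for Ghrl, the outermost of 4 listed). For some genes, Sst among them, the annotated gene reaches further upstream than that start. No build is named for the array. The windows are chr11:100334157-100334456 (plus strand) for Gast, chr6:113719862-113720161 (minus strand) for Ghrl, chrX:7919572-7919871 (plus strand) for Pcsk1n, chr2:132781392-132781691 (plus strand) for Chgb and chr16:23890795-23891094 (minus strand) for Sst. Capitals mark TGACGTCA, the cyclic AMP response element, and TATAA, the core of the TATA box, each searched on both strands, a search chosen with the values and sequences in view.
Gast: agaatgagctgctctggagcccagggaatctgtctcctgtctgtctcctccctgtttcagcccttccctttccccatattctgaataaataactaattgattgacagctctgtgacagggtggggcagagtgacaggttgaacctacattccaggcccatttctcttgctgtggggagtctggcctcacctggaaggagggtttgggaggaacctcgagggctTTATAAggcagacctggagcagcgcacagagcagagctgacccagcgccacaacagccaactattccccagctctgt
Ghrl: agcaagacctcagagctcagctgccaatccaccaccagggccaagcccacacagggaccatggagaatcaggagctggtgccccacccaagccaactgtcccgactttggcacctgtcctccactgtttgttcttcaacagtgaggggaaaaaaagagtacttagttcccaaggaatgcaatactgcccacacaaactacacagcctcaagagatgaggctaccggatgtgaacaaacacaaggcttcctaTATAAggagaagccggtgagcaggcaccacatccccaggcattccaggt
Pcsk1n: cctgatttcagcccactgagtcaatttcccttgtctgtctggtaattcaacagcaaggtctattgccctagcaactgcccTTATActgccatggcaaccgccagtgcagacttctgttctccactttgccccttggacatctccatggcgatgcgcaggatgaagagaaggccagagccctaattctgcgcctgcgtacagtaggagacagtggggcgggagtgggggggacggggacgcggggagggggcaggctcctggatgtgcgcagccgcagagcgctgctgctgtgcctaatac
Chgb: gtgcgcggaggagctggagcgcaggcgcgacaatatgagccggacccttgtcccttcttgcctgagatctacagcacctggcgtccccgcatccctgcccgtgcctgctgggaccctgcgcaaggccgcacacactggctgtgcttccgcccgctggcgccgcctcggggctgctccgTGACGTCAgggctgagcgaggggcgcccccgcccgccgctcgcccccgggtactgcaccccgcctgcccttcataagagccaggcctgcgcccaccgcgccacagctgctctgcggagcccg
Sst: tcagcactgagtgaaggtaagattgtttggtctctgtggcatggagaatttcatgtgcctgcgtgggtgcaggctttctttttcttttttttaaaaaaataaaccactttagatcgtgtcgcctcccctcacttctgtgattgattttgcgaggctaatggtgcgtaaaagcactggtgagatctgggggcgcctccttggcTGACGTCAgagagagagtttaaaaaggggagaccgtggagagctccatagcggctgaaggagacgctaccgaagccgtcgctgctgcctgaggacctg
TGACGTCA occurred at -48 to -41 in Sst, at -72 to -65 in Chgb and, among the genes not shown, at -78 to -71 in Pcsk1, counted from that listed start as 1, with no position 0. So 3 of 10 genes held it, against 1.79% of 32851 windows of the same length, and they include Chgb, whose interval lay below 0, as well as Sst and Pcsk1, whose pools overlapped between strains. TATAA was found, at any position and on either strand, in 5 of 10 genes and in 24.9% of all windows. A match so counted need not mark a TATA box. Among the genes not shown, Sct held TATAA at -28 to -24 and Chga at 6 to 10, past the listed start. In Gast it lay at -26 to -22, with a copy on the opposite strand that overlaps it by all but 1 base. In Ghrl TATAA lay at 2 to 6, also past the listed start, and in Pcsk1n at -170 to -166 on the opposite strand. A match is a description of these letters, and the windows show the C57BL/6J sequence, not that of CAST.

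Other genes of the pathway were read from lists of receptors, granule and processing proteins, further gut hormones, and endocrine transcription factors, and 0 of their 27 measured genes passed in limma. An unadjusted p under 0.05 was reached by 5 of 27 (18.5%), against 15.8% of all probes, so these lists as a whole stood near the background. Of 12 measured prohormone-processing and granule proteins, 9 had negative differences (50.4% of all probes), with a median of -0.17. Of the 12, 2 had an unadjusted p under 0.05. Those were Resp18, a granule protein of endocrine cells, with a difference of -0.33 ± 0.092, and Tpst1, which sulfates tyrosines, with -0.35 ± 0.11. Resp18 read 13.57 and 13.60 in the congenic pools, against 13.86 and 13.99 in the wild-type pools, with no overlap. Enzymes of peptide maturation that lay the other way were Cpd, a carboxypeptidase (0.23 ± 0.093), and Pam, which amidates the end of gastrin and other peptides (0.24 ± 0.10). Tpst2, a second sulfotransferase, differed by -0.33 ± 0.16 and Scg5, the chaperone of another convertase, by -0.17 ± 0.12. Cpe, the carboxypeptidase that trims cut prohormones, differed by -0.14 ± 0.10 with overlapping pools. Slc18a2, which loads histamine into the granules of enterochromaffin-like cells, differed by -0.16 ± 0.15, also with overlap.

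Of 13 receptors listed for these hormones and histamine, 10 had a probe. Of the 10, 4 were measured on all arrays, 1 was blank on some and 5 were blank on all, among them Ghsr, the ghrelin receptor. A blank is not read as an absent transcript. Sstr2, a somatostatin receptor, read 12.73 and 12.87 in the congenic pools, against 13.22 and 13.24 in the wild-type pools. These groups did not overlap, and the difference of -0.43 ± 0.11 had an unadjusted p under 0.05 but did not pass (limma adjusted p = 0.1827). Cckar, a cholecystokinin receptor, differed by 0.075 ± 0.077 and Hrh2, the histamine receptor of parietal cells, by 0.037 ± 0.19. Hrh3, another histamine receptor, differed by 0.80 ± 0.39, reading 10.63 and 11.15 in the congenic pools, against 9.59 and 10.58 in the wild-type pools. The Hrh3 probe was dim, above 7.79% of the probes compared, and its difference did not pass (limma adjusted p = 0.3777). Cckbr, the gastrin receptor, was not analysed here.

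Among 6 measured further hormones and transmitters, 3 differences were positive and 3 negative. Vip, a peptide of enteric neurons, read 14.63 and 14.48 in the congenic pools, against 14.24 and 14.26 in the wild-type pools, and was the one with an unadjusted p under 0.05 (0.30 ± 0.088). Gal, another neuronal peptide, differed by 0.22 ± 0.11 and Pyy, a peptide of the distal gut and islets, by 0.18 ± 0.11. The negative differences were those of Npy (-0.24 ± 0.17), Grp (-0.043 ± 0.11) and Tac1 (-0.032 ± 0.12). All 5 measured transcription factors had negative differences, with a median of -0.077, and 1 had an unadjusted p under 0.05. That was Foxa2, a regulator of foregut endoderm, at 13.35 and 13.93 in the congenic pools and 14.06 and 14.31 in the wild-type pools (-0.54 ± 0.20). Neurog3, which starts the endocrine fate in the gut, differed by -0.044 ± 0.23 with overlapping pools. Isl1 differed by -0.058 ± 0.082 and Sox4 by -0.077 ± 0.13. Rfx6, which acts downstream of Neurog3, read 10.20 and 10.10 in the congenic pools, against 10.27 and 11.21 in the wild-type pools (-0.60 ± 0.35). So wild-type pool 2 stood above the other 3, and the probe was dim, above 7.15% of the probes compared.

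**Figure D4:**
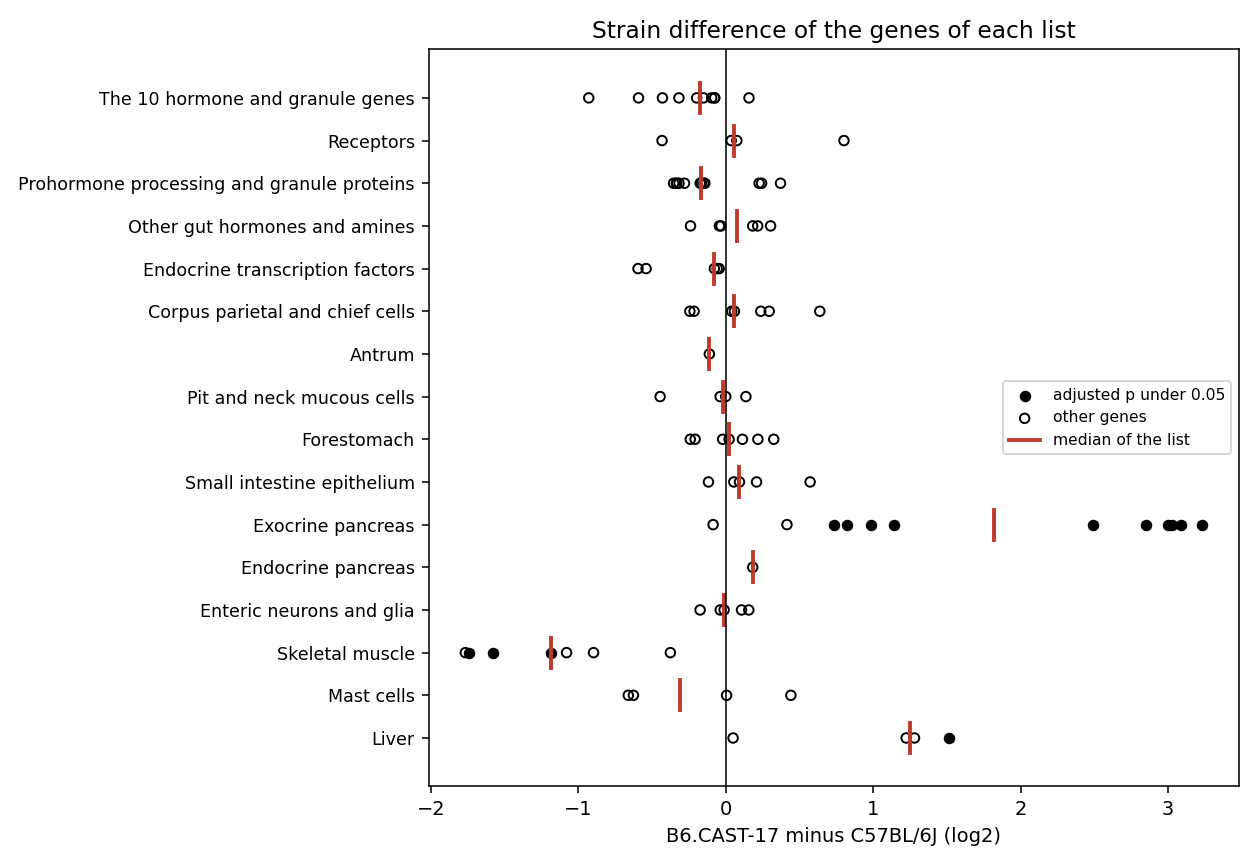
Differences, B6.CAST-17 minus C57BL/6J, on the log2 scale for the 10 hormone and granule genes, the 4 pathway lists and 11 marker lists; each circle is 1 gene measured on all arrays, filled where the limma adjusted p over all probes is under 0.05, and red lines are medians. Filled circles appear for the exocrine pancreas and liver (to the right) and skeletal muscle (to the left), and for none of the endocrine lists.

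Of 8 parietal and chief cell genes with a probe, which mark the stomach itself, 7 were measured on all arrays and 1 was blank on all. Regions of the stomach differ in their hormones, and markers of these regions were read beside Gast and Ghrl. Of the 7 parietal and chief cell genes of the corpus, where most ghrelin cells also lie, 5 had positive and 2 negative differences, with a median of 0.059, and 0 passed in limma. The 2 with an unadjusted p under 0.05 pointed opposite ways, Bhlha15, a chief cell transcription factor, at 0.29 ± 0.094 and Atp4a, a proton pump subunit, at -0.21 ± 0.079. Pga5, a pepsinogen, differed by 0.24 ± 0.11 and Kcnq1, a potassium channel of parietal cells, by -0.24 ± 0.13. Cblif, gastric intrinsic factor, differed by 0.64 ± 0.33, with 20.20 and 20.24 in the congenic pools, against 19.02 and 20.14 in the wild-type pools. Atp4b, the partner of Atp4a, differed by 0.041 ± 0.075. In the antrum, which holds G cells, Aqp5, a water channel of its glands, differed by -0.11 ± 0.095. Pdx1, a factor of the antrum and duodenum, was blank in congenic pool 2 and read 10.15 in congenic pool 1, against 9.45 and 9.90 in the wild-type pools. With 1 antral gene measured on all arrays, the share of antrum in the pools was not tested. Of 7 measured forestomach genes, 3 had negative and 4 positive differences, with a median of 0.023, and 0 passed in limma. An unadjusted p under 0.05 was reached by Sprr3 (0.22 ± 0.078) and Krt5 (-0.24 ± 0.093), and by 15.8% of all probes. Of 4 measured pit and neck mucous cell genes 0 passed in limma, with a median of -0.019. The shares of these regions were not tested either.

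Markers of neighbouring tissues are given beside the hormone genes. Some markers of exocrine pancreas, skeletal muscle and liver passed in limma, where 0.475% of all probes did. Among islet, neuron and intestinal markers 0 passed. A gene said here to have risen or fallen is one that passed. Of 12 measured exocrine pancreas genes, 10 rose (Cela2a, Ctrb1, Reg1, Cpa1, Cela3b, Cpb1, Amy2a5, Prss1, Prss3 and Cel), by 0.74 to 3.23, and the median over the 12 was 1.82. Their summed signals had a log2 of 21.26 and 21.24 in the congenic pools, against 20.81 and 20.84 in the wild-type pools. Most of each sum is signal of the bright probes of Pla2g1b (0.42 ± 0.12) and Clps (-0.086 ± 0.14), which did not pass. The genes that rose also add to the sums, so the difference between strains is not that of these bright probes alone. Of 7 skeletal muscle genes, 3 fell (Acta1, Myl1 and Tnnt3), and the median over the 7 was -1.18. All 7 had both congenic pools below both wild-type pools, against 26.1% of all probes. The muscle list summed to 15.66 and 15.71 in the congenic pools, against 16.98 and 17.001 in the wild-type pools. Of 4 liver genes, 1 rose, Alb (1.52 ± 0.15), and the median was 1.25, with Fgg at 1.28 ± 0.22 and Ahsg at 1.22 ± 0.16. The liver list summed to 17.99 and 17.88 in the congenic pools and 17.78 and 17.80 in the wild-type pools. Most of each sum is signal of the bright Ttr probe (0.050 ± 0.077), but Alb, Fgg and Ahsg also add to the difference between strains. The part of these tissues in the hormone and granule values was not tested. Islets also make somatostatin and chromogranins, and of 6 islet genes with a probe, 4 were blank on all arrays, the insulin gene Ins2 with Mafa, Nkx6-1 and G6pc2. Ppy had a value in congenic pool 2 alone (9.66), and Pyy read 13.14 and 13.18 in the congenic pools, against 12.89 and 13.06 in the wild-type pools, without overlap (0.18 ± 0.11). A blank does not show that islet RNA was absent, and its part was not tested. Enteric neurons also make several of these peptides, and 0 of 5 measured neuron genes passed in limma, with 0 at an unadjusted p under 0.05 and a median difference of -0.011. Of 5 intestinal genes 0 passed in limma, with Fabp1, a fatty acid carrier, at 0.57 ± 0.091 and Apoa4, an intestinal apolipoprotein, at 0.21 ± 0.085, both with an unadjusted p under 0.05.

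The profile of each of the 4 genes with an unadjusted p under 0.05 was set beside those of all 7906 other named probes, as the root mean square difference of the 4 centred values. Outside the 10 genes, the nearest to Gast were Ndufb4 (0.022), Mpv17l (0.024) and Wdr24, a gene of chromosome 17 (0.034), and 83 probes lay within 0.1. The nearest to Ghrl were Dicer1, Gar1 and Fbxw5, at 0.017 to 0.023, with 438 probes within 0.1. For Chgb, Ptpmt1, Sap18 and F3 lay at 0.0096 to 0.012, with 917 probes within 0.1. Profiles like that of Pcsk1n were fewer, with 2 probes within 0.1, Ywhag (0.084) and Pex5 (0.087), and Slc16a1 next (0.10). With 4 arrays such likeness is common for small differences, and nothing further is read from it.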

How the data were processed

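The authors hybridised digoxigenin-labelled cRNA from 1 microgram of TRIzol-extracted RNA of each pool, per the labels' protocols, and deposited 1 signal per probe and array, read here as log2. Their normalization, log base and rule for blank cells are not stated. Gkn2, the brightest probe, read 21.25 on all 4 arrays, and some exact values recurred between arrays. The arrays may therefore have been scaled to a shared distribution before deposit. The base was taken from the range of 6.73 to 21.25, and each fold depends on it. Array medians over the 13475 probes without blanks were 12.819 to 12.824, so nothing was rescaled. Signal over background is unknown, and 4 arrays limit the precision.

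Probes were named through the platform annotation, and a listed gene used its probe with the highest mean. Strains were compared with limma 3.58.1 (R 4.3.3) without covariates, modelling the variance as a trend in the mean (degrees of freedom 2 residual, 3.97 prior), with two-sided p-values adjusted by Benjamini-Hochberg. The fit was tested on simulated data. An exact permutation test of 2 pools against 2 cannot go below p = 0.333 and was not used. All p-values reflect variation among pools of 3 animals, not among single animals.

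The 10 genes and all lists were chosen with earlier results of these data known. The rule named the 10 genes, list members that passed, up to 5 others per list by p, and the 3 nearest profiles of 4 genes. Some genes so named, in the forestomach, mucous cell, neuron, muscle and intestinal lists, are given only within the counts of their list. Cpe, Slc18a2, Scg5, Atp4b, Pdx1, Ghsr, Cckbr and the islet genes were added for their roles. Alternatives were a replicate block, quantile normalization, median centring, leaving out dim probes, no variance trend, leaving out each pool and allowing 1 blank. The array medians and the value of the brightest probe already nearly agreed between arrays. Quantile normalization and median centring could therefore change little, and they are weak checks. Figures used matplotlib 3.10.9.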

Additional observations from a re-analysis of the deposited data

How the results depend on the processing

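None of the 10 genes passed under any alternative tried in limma, and of 96 differences recomputed for single genes, 94 kept their sign. Many of these could not change sign. The replicate block, leaving out dim probes, no variance trend and allowing 1 blank leave each difference as it was. Where the pools of the strains do not overlap, leaving out 1 pool cannot reverse the difference. Without 1 pool, Cck ranged from -0.37 to 0.066 (positive without congenic pool 1) and Pcsk1 from -0.20 to 0.046 (positive without wild-type pool 1). The count of 64 over all probes was 35 with the replicate block and 20 without the variance trend. Leaving out 1 pool gave 15 (congenic pool 1), 27 (congenic pool 2), 61 (wild-type pool 1) or 168 (wild-type pool 2). The median of the 10 differences was -0.37 when dim probes were left out, which leaves 6 of the genes, and ranged from -0.30 (congenic pool 2 left out) to -0.15 without 1 pool. The lowest limma adjusted p under any alternative was 0.05697, for Gast without wild-type pool 1. The labels do not say that equal pool numbers share a batch, and the pool 1 minus pool 2 differences of the strains correlated at -0.06 across probes, which are not independent. With the replicate block, 0 of 10 genes passed in limma.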
